A study of Homo sapiens with 6 samples.

Results

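The genes of glutathione synthesis and peroxidase activity described here were GCLC, GCLM and GSS of synthesis, GSR of recycling, the peroxidase genes GPX1, GPX2, GPX4 and GPX8, and GGT1 and CHAC1 of breakdown. They are 10 of the 18126 gene symbols in the tables, picked by symbol, with earlier results of this same contrast known. Their differences between groups are therefore given as a description, without p-values. RNA came from 786-O, a long-established line of human clear cell renal carcinoma, and gave 6 libraries made with BGISEQ-500 protocols. In 3 libraries the cells had been transfected with an siRNA against TEAD4 (siTEAD4) and in 3 with a control (Control). TEAD4 encodes a transcription factor through which the coactivator YAP reaches DNA, and the series title concerns YAP, TEAD4 with NF-kB, and tumour growth. The labels give neither the time after transfection nor the siRNA sequence.

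Glutathione is a tripeptide of glutamate, cysteine and glycine and the main small thiol of the cell. Glutamate-cysteine ligase makes the first bond and sets the pace of synthesis, glutathione synthetase adds glycine, peroxidases spend the thiol to reduce peroxides, and glutathione reductase restores it with NADPH. The kidney tubule is known for high turnover of glutathione at its surface. NRF2, held back by KEAP1, binds antioxidant response elements of several of these genes, and CHAC1 is a known target of ATF4.

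The promoters show which of 2 sequence motifs stand near these genes. RefSeq windows of 300 bases (GRCh38.p14, 250 before to 50 after the start) were used for 8 of the 10 genes, 11 windows in all. None was at hand for GSS, and GSR was left out of the search. These 11 windows were searched on both strands for TGACNNNGC, the core of the antioxidant response element, and TGATGNAA, a composite site of ATF4 and C/EBP. The first is present in 13.3% and the second in 3.6% of 34943 such windows. The windows of 5 genes carried a match, all on the strand opposite to the gene and none within 6 bases of TGANTCA, the AP-1 site. The 250 bases before the RefSeq start are shown for GCLM and CHAC1, since they stand for the 2 motifs. Both are given on the strand of the gene and with the match in capitals. The GCLM stretch is chr1:93909431-93909680, minus strand, and the CHAC1 stretch chr15:40953221-40953470, plus strand.
GCLM: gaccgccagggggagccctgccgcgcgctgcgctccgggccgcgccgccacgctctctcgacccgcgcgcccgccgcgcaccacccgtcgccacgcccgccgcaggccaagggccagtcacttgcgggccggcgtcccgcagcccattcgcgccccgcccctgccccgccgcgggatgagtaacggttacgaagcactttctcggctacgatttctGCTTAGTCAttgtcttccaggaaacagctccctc
CHAC1: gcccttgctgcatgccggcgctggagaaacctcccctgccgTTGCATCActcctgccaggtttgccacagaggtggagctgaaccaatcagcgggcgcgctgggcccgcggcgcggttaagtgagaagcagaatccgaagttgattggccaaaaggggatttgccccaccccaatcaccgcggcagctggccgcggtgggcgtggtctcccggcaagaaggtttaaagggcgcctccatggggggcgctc
The GCLM match reads TGACTAAGC on the motif's strand, with 25 bases between it and the RefSeq start. The CHAC1 match reads TGATGCAA, with 201 bases between it and the RefSeq start. The other 3 matches are shown with 16 bases on each side, because they complete the set of searched genes with a match.
GPX2: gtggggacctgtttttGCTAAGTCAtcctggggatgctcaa
GGT1: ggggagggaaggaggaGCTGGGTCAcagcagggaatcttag
GPX8: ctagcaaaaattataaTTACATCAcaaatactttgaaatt
These lie at chr14:64942843-64942883 (GPX2, minus strand), chr22:24603148-24603188 (GGT1, second of 2 starts, plus strand) and chr5:55159966-55160005 (GPX8, plus strand). GPX2 and GGT1 hold the first motif and GPX8 the second. The windows of GCLC, GPX1 and GPX4 held neither, which says only that these letters are not in these windows.

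The values are FPKM, which divide fragments by gene length and sequencing depth, so the number of reads behind each value is unknown and no counting interval can be given. The column headers do not match the labels: those of the siTEAD4 libraries name a Tead inhibitor, and those of Control 2 and Control 3 name a vehicle. Groups here follow the labels. TEAD4 stood at 8.92, 7.65 and 7.52 FPKM in siTEAD4 and at 12.52, 16.99 and 11.28 FPKM in Control. Its log2 fold change was -0.68 ± 0.143 (SE; limma adjusted p = 0.00521; exact two-sided permutation p = 0.1, the smallest that 3 against 3 allow). Control 1 and Control 2 differed in opposite directions along transcript length. The deviation of Control 2 from the other Control libraries correlated with log2 transcript length at r = -0.524. For Control 1 the correlation was 0.565 and for Control 3 it was 0.118, across 11156 genes, which are not independent replicates. The siTEAD4 libraries lay between -0.165 and 0.176. Of 9 renal carcinoma line markers, 8 reached 1 FPKM, with PAX8 at 70.2 ± 0.975 in siTEAD4 and 76.6 ± 11.1 FPKM in Control (SD, n = 3 each), though the hypoxia marker NDUFA4L2 did not. The line markers were not all alike between groups: CDH6 (-2.35) and PAX2 (-0.76) were called lower and EPAS1 (0.32) higher by limma, and the other 5 were not called. CDH6 averaged 29.3 ± 1.17 FPKM in siTEAD4 and 155 ± 23.9 FPKM in Control (SD, n = 3 each). None of 4 endothelial and none of the 4 nephron markers found reached it, AQP2 and LRP2 being listed at 0 throughout. Of 5 leukocyte markers 1 (LYZ) and of 4 fibroblast markers 2 reached 1 FPKM. The fibroblast sum was 1.11 to 1.30 FPKM in siTEAD4 and 3.10 to 3.65 FPKM in Control, with DCN at 0. The part of these markers in the results, the lower GGT1 and ANPEP included, was not tested.

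Among the genes, both subunits of glutamate-cysteine ligase and glutathione reductase were higher in siTEAD4, GGT1 was lower, and the abundant peroxidase genes GPX1 and GPX4 and the synthetase gene GSS lay in overlapping ranges. Smaller differences were seen for CHAC1, which was higher, and GPX8, which was lower. The limma test on log2(FPKM + 1) took genes that reached 1 FPKM in 3 or more libraries, and GPX2 was below this filter. Of the other 9, 6 passed a Benjamini-Hochberg adjusted p of 0.05 over all 11411 genes, 4 higher and 2 lower. Over all genes 44.9% passed, 26.1% higher and 18.8% lower. That background moved with single libraries: 2982 genes were higher with all 6. Without siTEAD4 1, 2 or 3 the numbers were 1801, 1870 and 1868, and without Control 1, 2 or 3 they were 3432, 4034 and 2100. The same 6 had FPKM ranges that did not overlap between groups, 4 higher and 2 lower, against 57.7% of all tested genes (35.1% higher and 22.6% lower). Since the genes were chosen with this contrast known, nothing is read from these counts. The median log2 fold change was -0.0022 over the 9 and 0.09 over all genes. In bulk RNA, a smaller share of cells with a transcript and less of it per cell cannot be told apart.

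**Figure D1:**
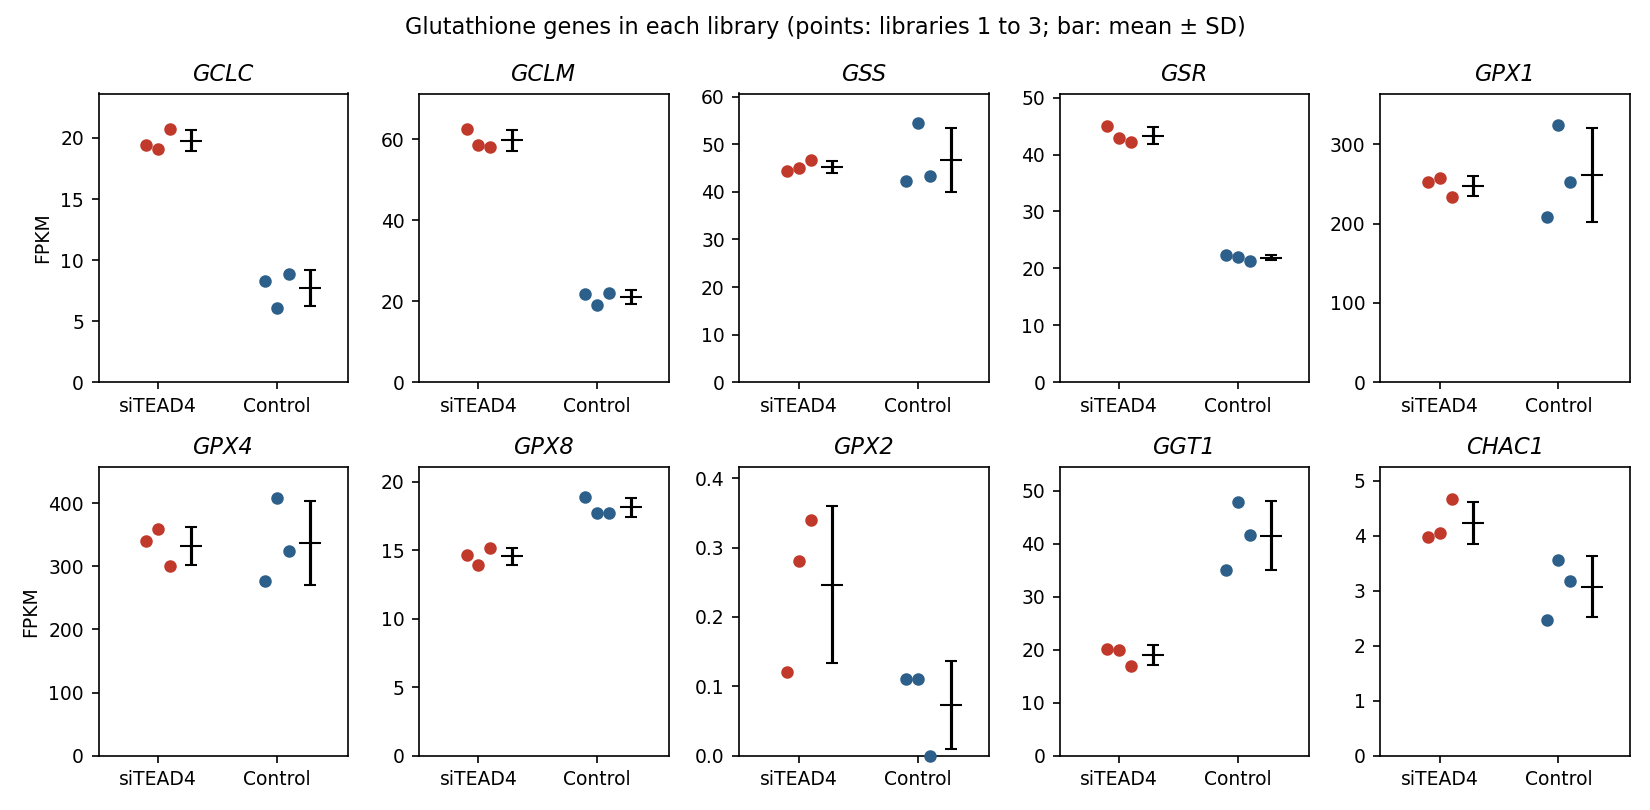
FPKM of the 10 genes (vertical axes start at 0 and differ between panels) in siTEAD4 (red) and Control (blue) libraries, with the mean and SD of 3 beside the points. GCLC, GCLM and GSR lie higher in all siTEAD4 libraries and GGT1 and GPX8 lower, while the points of GSS, GPX1 and GPX4 overlap and Control 2 is the highest point of each of these 3.

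The first step of synthesis showed the largest differences of the set. GCLC (chromosome 6, 53497341 to 53616970, minus strand, GRCh38) encodes the catalytic subunit of glutamate-cysteine ligase. It stood at 19.43, 19.12 and 20.76 FPKM in siTEAD4 libraries 1 to 3, and at 8.32, 6.07 and 8.85 FPKM in Control libraries 1 to 3. Every siTEAD4 library was above every Control library, and Control 2 was the lowest. The means were 19.8 ± 0.871 FPKM in siTEAD4 and 7.75 ± 1.48 FPKM in Control (SD, n = 3 each), a log2 fold change of 1.26 ± 0.127 (SE; 95% interval 0.97 to 1.55). Without Control 2 it was 1.12.

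GCLM (chromosome 1, 93885205 to 93909456, minus strand) encodes the modifier subunit, which raises the affinity of the enzyme for glutamate. It stood at 62.64, 58.56 and 57.98 FPKM in siTEAD4, and at 21.70, 18.98 and 22.13 FPKM in Control. The groups were far apart, and the siTEAD4 mean of 59.7 ± 2.54 FPKM was 285% of the Control mean of 20.9 ± 1.71 FPKM (SD, n = 3 each). GCLM thus had a log2 fold change of 1.47 ± 0.0855 (SE; 1.28 to 1.67). Within each library GCLM exceeded GCLC by a similar factor. The ratio of their FPKM was 3.22, 3.06 and 2.79 in siTEAD4, and 2.61, 3.13 and 2.50 in Control, so the ratios overlapped.

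GSS (chromosome 20, 34928433 to 34956027, minus strand) encodes glutathione synthetase, the enzyme of the second step. Its values were 44.29, 44.93 and 46.71 FPKM in siTEAD4, and 42.22, 54.44 and 43.36 FPKM in Control. The ranges overlapped, with Control 2 above all others. The log2 fold change was -0.03 ± 0.104 (SE; -0.27 to 0.20), and without Control 2 its sign turned to 0.08. The ratio of GSS to GCLC was 2.28, 2.35 and 2.25 in siTEAD4, and 5.08, 8.97 and 4.90 in Control. On this per-length scale, the catalytic subunit was nearer to the synthetase in siTEAD4 than in any Control library.

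Recycling is the task of glutathione reductase, encoded by GSR (chromosome 8, 30678061 to 30727999, minus strand). GSR stood at 44.95, 42.97 and 42.15 FPKM in siTEAD4, and at 22.29, 22.06 and 21.38 FPKM in Control. It was the steadiest of the 10 genes across Control libraries, with a coefficient of variation of 2.16%, and the groups lay well apart. The siTEAD4 mean was 198% of the Control mean, at 43.4 ± 1.44 against 21.9 ± 0.473 FPKM (SD, n = 3 each). For GSR the log2 fold change was 0.95 ± 0.0727 (SE; 0.79 to 1.12), and 0.96 without Control 2.

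The peroxidase genes held most of the transcript of the set. GPX4 (chromosome 19, 1103926 to 1106791, plus strand) encodes the selenoenzyme that reduces lipid hydroperoxides in membranes and protects from ferroptosis. It stood at 339.42, 358.67 and 300.01 FPKM in siTEAD4, and at 276.42, 408.74 and 324.75 FPKM in Control. The Control range enclosed the siTEAD4 range. For GPX4 the log2 fold change was -0.0022 ± 0.141 (SE; -0.32 to 0.32). It was 0.15 without Control 2, 0.07 without siTEAD4 3 and -0.13 without Control 1.

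GPX1 (chromosome 3, 49357171 to 49358600, minus strand) encodes the cytosolic selenoenzyme that reduces hydrogen peroxide. GENCODE release 29 lists it as a polymorphic pseudogene. Its values were 251.77, 257.77 and 233.30 FPKM in siTEAD4, and 207.74, 324.74 and 252.21 FPKM in Control. Again the Control range enclosed the other, with Control 2 highest and Control 1 lowest. The log2 fold change was -0.06 ± 0.147 (SE; -0.39 to 0.28), 0.11 without Control 2 and -0.21 without Control 1. The longest transcripts of GPX1 (1151 bases) and GPX4 (1184 bases) are short, while those of GCLC (3813 bases) and GCLM (4857 bases) are long. Control 2 was high in the short pair and low in the long pair. Among the other tested genes, Control 2 was also the highest Control library for CHAC1 (1849 bases), GGT1 (2632 bases) and GSS (3019 bases). It lay between the others for GSR (3192 bases), and near Control 3 and below Control 1 for GPX8 (3422 bases). Whether length accounts for these levels was not tested. In an alternative added once the data had been seen, which takes out each library's trend in length and GC content, the log2 fold changes were -0.0019 for GPX1, 0.04 for GPX4, 0.01 for GSS, 1.21 for GCLC and 1.37 for GCLM.

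GPX8 (chromosome 5, 55160118 to 55167071, plus strand) encodes a peroxidase of the endoplasmic reticulum membrane that uses cysteine in place of selenocysteine. It stood at 14.62, 13.91 and 15.13 FPKM in siTEAD4, and at 18.91, 17.72 and 17.73 FPKM in Control. All siTEAD4 libraries were lower, by a small margin. For GPX8 the log2 fold change was -0.30 ± 0.0788 (SE; -0.48 to -0.12). GPX8 no longer passed the threshold without siTEAD4 1 or without siTEAD4 2, at log2 fold changes of -0.30 and -0.27. It passed in 13 of 15 alternatives, and over all 15 the log2 fold change ranged from -0.40 to -0.24.

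GPX2 (chromosome 14, 64939152 to 64942905, minus strand) encodes a selenoenzyme best known from the gut epithelium. Its values were 0.12, 0.28 and 0.34 FPKM in siTEAD4, and 0.11, 0.11 and a listed 0 in Control. The lowest siTEAD4 value was 0.12 and the highest Control value 0.11 FPKM, which differ only in the last decimal given. GPX2 was below the filter and the reads behind its values are unknown, so no fold change is given. Summed over the 7 GPX genes in the tables, the peroxidase transcript was 606, 631 and 549 FPKM in siTEAD4, and 504, 752 and 596 FPKM in Control. GPX1 and GPX4 made up 97.1% to 97.7% of that sum in siTEAD4 libraries and 96.0% to 97.5% in Control libraries. The ratio of GPX4 to GPX1 was 1.34 ± 0.0528 in siTEAD4 and 1.29 ± 0.0362 in Control (SD, n = 3 each), with overlapping ranges.

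Breakdown genes moved apart. GGT1 (chromosome 22, 24583750 to 24629005, plus strand) encodes gamma-glutamyltransferase, the surface enzyme that opens extracellular glutathione and is abundant in the renal proximal tubule. It stood at 20.10, 20.02 and 16.85 FPKM in siTEAD4, and at 34.98, 47.90 and 41.70 FPKM in Control. The siTEAD4 mean was 45.7% of the Control mean, at 19.0 ± 1.85 against 41.5 ± 6.46 FPKM (SD, n = 3 each), and the groups did not overlap. The log2 fold change was -1.08 ± 0.123 (SE; -1.36 to -0.80). GGT2, a near copy whose reads could be shared with GGT1, was at 0.837 ± 0.329 FPKM in siTEAD4 and 1.48 ± 0.534 FPKM in Control (SD, n = 3 each). Other near copies were below the filter. GGTLC2 was at 0, 0 and 0.17 FPKM in siTEAD4, and at 0.53, 0.45 and 0.77 FPKM in Control. GGTLC1 lay in overlapping ranges (0.32 FPKM on average in siTEAD4 and 0.413 in Control), and GGTLC3 was listed at 0 throughout. How shared reads were assigned is not given in the sources used here.

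CHAC1 (chromosome 15, 40952962 to 40956519, plus strand) encodes a cytosolic enzyme that cleaves glutathione. It stood at 3.98, 4.05 and 4.66 FPKM in siTEAD4, and at 2.47, 3.56 and 3.18 FPKM in Control. The siTEAD4 libraries were higher, but siTEAD4 1 lay only a little above Control 2. The log2 fold change was 0.37 ± 0.119 (SE; 0.10 to 0.64), on a scale that understates changes of low genes. CHAC1 passed the threshold in 7 of 14 alternatives and missed it in 7. It missed it after rescaling to one median (0.31), with no filter on low values (0.37) and without any 1 library but Control 2 (0.26 to 0.40).

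**Figure D2:**
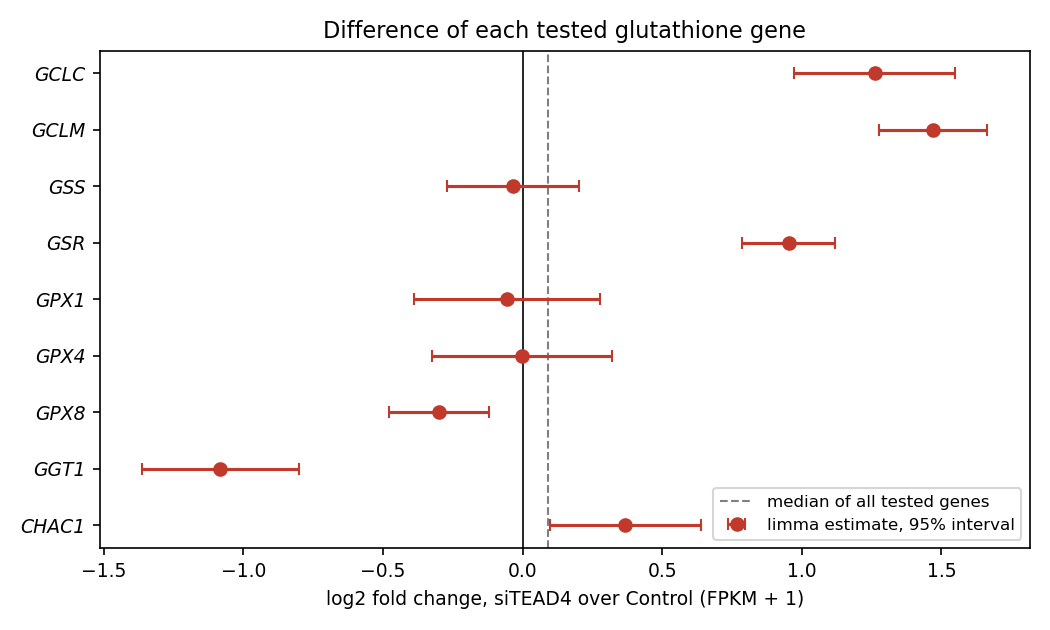
Log2 fold change of siTEAD4 over Control on the log2(FPKM + 1) scale for the 9 tested genes, with 95% limma intervals and the median of all tested genes (0.09) as a dashed line. GCLC, GCLM and GSR lie near or above 0.95, GGT1 near -1.08, and the intervals of GSS, GPX1 and GPX4 include 0.

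**Figure D3:**
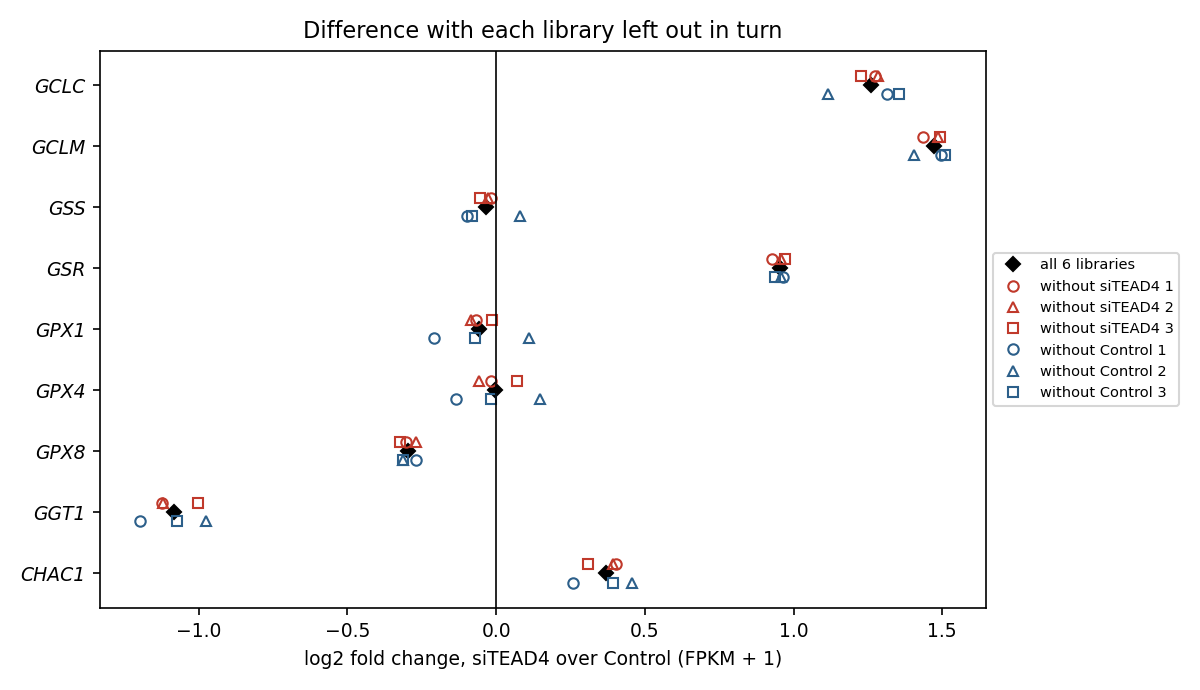
The same log2 fold changes with all 6 libraries (black) and with each library left out in turn (horizontal axis, log2(FPKM + 1) scale), siTEAD4 in red and Control in blue. GCLC, GCLM, GSR and GGT1 keep their places, while GSS, GPX1 and GPX4 cross 0 without Control 2, GPX4 also without siTEAD4 3.

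Within the Control libraries alone, the levels spanned a wide range. GPX4 (337 ± 67.0 FPKM) and GPX1 (262 ± 59.1 FPKM; SD, n = 3) came first and overlapped, each above at least 98.0% of tested genes. GSS (46.7 ± 6.75 FPKM) and GGT1 (41.5 ± 6.46 FPKM) followed and overlapped, as did GSR (21.9 ± 0.473 FPKM) and GCLM (20.9 ± 1.71 FPKM). GPX8 came next, at 18.1 ± 0.684 FPKM, then GCLC at 7.75 ± 1.48 FPKM, CHAC1 at 3.07 ± 0.553 FPKM and GPX2 at 0.0733 ± 0.0635 FPKM (SD, n = 3). These last 4 did not overlap with their neighbours. GCLC, which encodes the catalytic subunit of the pacing enzyme, thus ranked eighth of 10 and above 36.2% of tested genes. In siTEAD4 the order differed: GCLM (59.7 FPKM) stood above GSS (45.3 FPKM) with no overlap. GCLC (19.8 FPKM) and GGT1 (19.0 FPKM) overlapped there, GGT1 being the higher in 2 of 3 libraries.

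Other genes of the pathway were read from 8 lists written by role, 81 symbols in all. Of these, 80 were in the tables and 64 were tested; 29 rose and 7 fell in limma, with 28 not passing. Over all tested genes 26.1% rose and 18.8% fell. Since the lists too were chosen with earlier results known, nothing is read from their counts against that background, and the adjusted p-values below belong to single genes in the fit over all genes. Rescaling each library to one median moved the balance over all genes to 2172 higher and 2455 lower, against 2982 and 2141 on the deposited values.

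Most genes that supply the amino acids of glutathione rose. Of 8 tested, 5 rose and 0 fell in limma, also at an unadjusted p under 0.05, with a median log2 fold change of 0.49 beside 0.09 over all genes. CTH, the enzyme that makes cysteine from cystathionine, rose (1.15 ± 0.0963 SE, adjusted p = 4.34e-05), at 7.59 ± 0.492 FPKM in siTEAD4 and 2.88 ± 0.299 FPKM in Control (SD, n = 3 each). SLC7A11, the cystine importer, stood at 8.24, 8.26 and 8.14 FPKM in siTEAD4, and at 4.11, 2.34 and 3.71 FPKM in Control (1.09, adjusted p = 0.000564). Its partner chain SLC3A2 (0.50, adjusted p = 0.011) and MAT2A (0.59, adjusted p = 0.00109), which makes S-adenosylmethionine, also rose. Without Control 2, 6 rose and 1 fell.

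Both called transport genes were lower. Of 4 tested, 2 fell and 0 rose in limma, also at an unadjusted p under 0.05, with a median of -0.36. They were ABCC1 (-0.68, adjusted p = 0.000367) and ABCC4 (-0.86, adjusted p = 0.00149), both exporters for which glutathione or its conjugates are substrates. ABCC1 stood at 8.94 ± 0.248 FPKM in siTEAD4 and 14.9 ± 1.05 FPKM in Control (SD, n = 3 each). Without Control 2, 1 gene of the list rose. The mitochondrial carrier genes SLC25A39 (0.04, adjusted p = 0.835) and SLC25A40 (-0.05, adjusted p = 0.758) did not pass, and ABCC2, below the filter, was at 0.44, 0.43 and 0.51 FPKM in siTEAD4 and 0.37, 0.29 and 0.30 FPKM in Control.

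Genes of breakdown and the gamma-glutamyl cycle were mixed: of 5 tested, 2 rose and 1 fell, with a median of 0.17. ANPEP, a surface aminopeptidase that acts on the dipeptide left by gamma-glutamyltransferase, fell (-1.33, adjusted p = 2.31e-05). It stood at 25.11, 25.55 and 24.81 FPKM in siTEAD4, and at 57.69, 73.93 and 63.40 FPKM in Control, so it was lower together with GGT1. LAP3, a cytosolic aminopeptidase (0.46, adjusted p = 0.00116), and CHAC2, the relative of CHAC1 (0.47, adjusted p = 0.00939), rose. The call of CHAC2 ended when siTEAD4 1 was left out (adjusted p = 0.0511) or the length and GC trend was taken out (adjusted p = 0.0531). Without Control 1, 2 genes of the list fell.

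Other enzymes with glutathione peroxidase activity also split. Of 4 tested, 2 rose and 1 fell, with a median of 0.28. The membrane enzyme gene MGST1 rose (0.79, adjusted p = 0.000127), at 163 ± 7.03 FPKM in siTEAD4 and 93.5 ± 6.57 FPKM in Control (SD, n = 3 each), and its relative MGST2 fell (-0.53, adjusted p = 0.0084). PRDX6, a peroxiredoxin that uses glutathione, rose by less (0.31, adjusted p = 0.0239). PRDX6 missed the threshold when Control 3 or any siTEAD4 library was left out (adjusted p 0.0728 to 0.0965), and when libraries were rescaled to one median (adjusted p = 0.0991). Of the other GPX genes in the tables, none passed the filter.

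Another list held the glutaredoxins, some of which reduce mixed disulfides with glutathione, and the glyoxalase and hydrolase genes beside them. Of 8 tested, 4 rose and 0 fell in limma, with a median of 0.33. At an unadjusted limma p under 0.05 the numbers were 5 and 1. GLRX2 (0.80, adjusted p = 7.27e-05), GLRX3 (0.79, adjusted p = 0.000111), GLRX (0.58, adjusted p = 0.00123) and GLO1 (0.38, adjusted p = 0.00631) passed. GLRX3 stood at 145 ± 0.730 FPKM in siTEAD4 and 83.5 ± 6.16 FPKM in Control (SD, n = 3 each). In 5 alternatives 1 gene of the list fell, among them the fit without Control 1 and the one rescaled to one median, and 6 rose without Control 2.

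The selenium side, which the selenoenzymes GPX1 and GPX4 depend on, moved in part. Of 10 genes of selenocysteine synthesis and insertion, 4 rose and 0 fell in limma (6 and 0 at an unadjusted p under 0.05), with a median of 0.24. LRP8, a receptor for selenoprotein P, rose most (0.81, adjusted p = 0.00092), at 17.5 ± 0.639 FPKM in siTEAD4 and 9.61 ± 1.69 FPKM in Control (SD, n = 3 each). SECISBP2, which binds the insertion element of selenoprotein mRNAs (0.48, adjusted p = 0.00193), SCLY (0.47, adjusted p = 0.00753) and TRNAU1AP (0.33, adjusted p = 0.0119) also rose. The call of TRNAU1AP ended without siTEAD4 1 (0.0665) or siTEAD4 3 (0.0558).

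Other selenoprotein genes did not share a direction: of 14 tested, 4 rose, 2 fell and 8 did not pass, with a median of 0.02. TXNRD1, thioredoxin reductase, stood at 260.86, 258.89 and 276.89 FPKM in siTEAD4, and at 92.02, 62.73 and 86.74 FPKM in Control (1.73, adjusted p = 2.98e-05). SELENOK (0.58, adjusted p = 0.00142) and SELENOS (0.58, adjusted p = 0.000717), both of the endoplasmic reticulum, rose, and SELENON of the same compartment fell (-1.01, adjusted p = 5.47e-05). Without Control 3 or any 1 siTEAD4 library, 1 selenoprotein gene fell in place of 2.

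**Figure D4:**
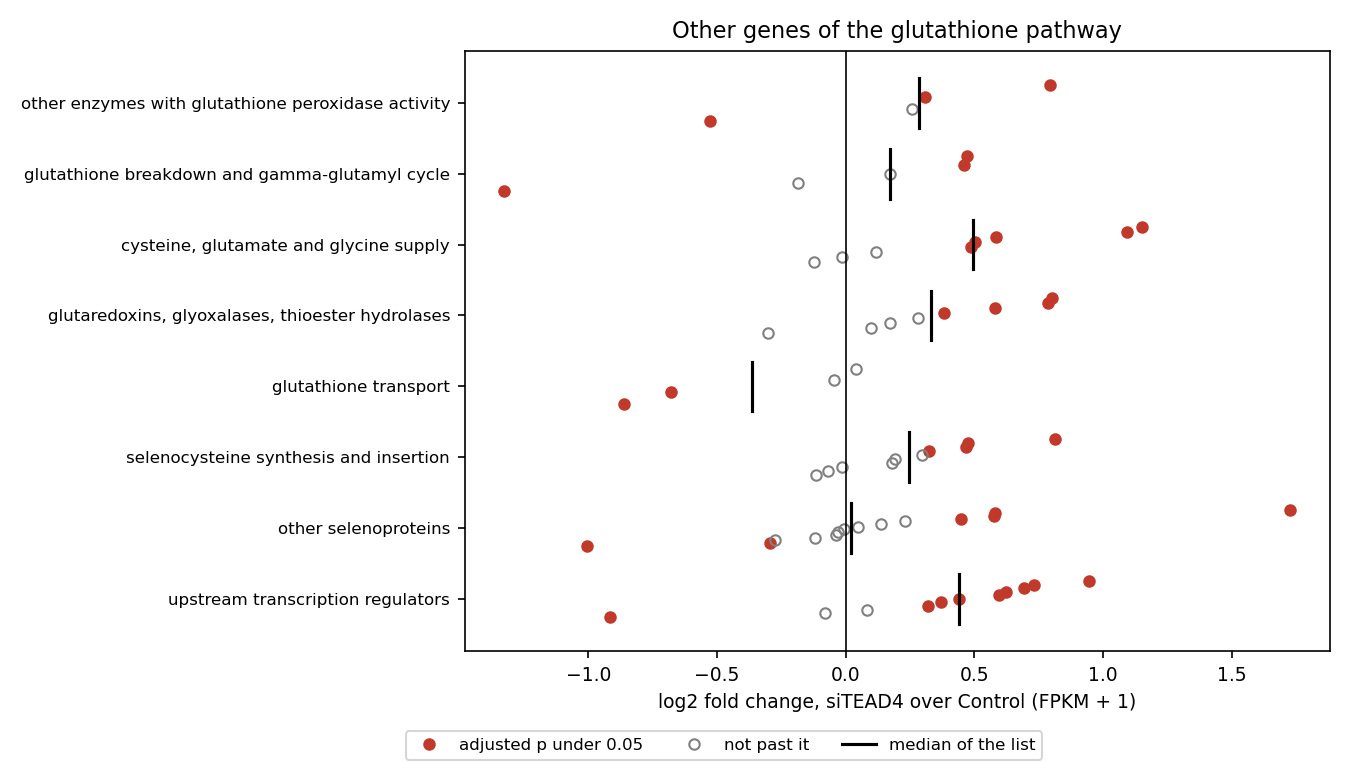
Log2 fold change of siTEAD4 over Control for the 64 tested genes of the 8 pathway lists, filled where the limma adjusted p was under 0.05, with each list's median as a bar. In the supply list 5 of 8 tested genes rose and 0 fell in limma (median 0.49). In the transport list, of only 4 tested, 2 fell and 0 rose (median -0.36). Over all tested genes 26.1% rose and 18.8% fell, and nothing is read from the counts of the lists.

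Among upstream transcription regulators, 8 of 11 tested rose and 1 fell, with a median of 0.44. The transcripts of the main activators did not pass: NFE2L2, which encodes NRF2, stood at 64.5 ± 3.71 FPKM in siTEAD4 and 68.4 ± 7.66 FPKM in Control (SD, n = 3 each; -0.08, adjusted p = 0.536), though it passed as lower without Control 2 (-0.17, adjusted p = 0.0437). ATF4 stood at 214 ± 7.21 FPKM in siTEAD4 and 203 ± 23.0 FPKM in Control (0.08, limma adjusted p = 0.511). KEAP1 rose (0.32, adjusted p = 0.0296), as did BACH1, a repressor at antioxidant response elements (0.62, adjusted p = 0.00945), and MAFG, a small MAF partner (0.69, adjusted p = 0.000229). ATF3 (0.94, adjusted p = 0.00026), DDIT3 (0.73, adjusted p = 0.0039) and TRIB3 (0.37, adjusted p = 0.0155), genes of the stress response downstream of ATF4, rose. NFE2L1, a relative of NRF2, fell (-0.92, adjusted p = 3.46e-05), at 31.2 ± 0.412 FPKM in siTEAD4 and 59.7 ± 2.84 FPKM in Control (SD, n = 3 each). KEAP1 missed the threshold when any library but Control 2 was left out (adjusted p 0.0507 to 0.121), and when libraries were rescaled to one median (adjusted p = 0.101). TRIB3 missed it when Control 3, siTEAD4 1 or siTEAD4 2 was left out (adjusted p 0.0581 to 0.0723), and on the same rescaling (adjusted p = 0.0566). Without Control 2, 2 regulators fell.

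The genes nearest to GCLM in pattern were sought by the distance of their log2 values over the 6 libraries, each gene centred on its mean, among 11402 tested genes outside the set. They were PSAT1 of serine synthesis (distance 0.122), SERP1 (0.148), PTGR1 (0.228), TM4SF19 (0.268) and WIPI1 (0.268). PSAT1 stood at 123 ± 3.84 FPKM in siTEAD4 and 43.2 ± 4.21 FPKM in Control (SD, n = 3 each), a log2 fold change of 1.49 beside the 1.47 of GCLM. Nearest to CHAC1 were TPT1 (0.068), FAM228B (0.109), C18orf21 (0.114), UQCRH (0.119) and MAIP1 (0.12), with log2 fold changes between 0.30 and 0.39. With 6 libraries in 2 groups, such distances reflect mainly the difference between the groups.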

How the data were processed

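RNA of 3 siTEAD4 and 3 Control libraries was measured; groups follow the sample titles. The authors deposited 1 table per library, with 18126 symbols and a column that 5 of the 6 file headers name FPKM. The Control 1 column names no unit and was taken as FPKM, since its symbols, decimals and range match the others. GRCh38 is the build named in the submitters' processing notes; the sources used here give no aligner, counting tool, annotation or strand. FPKM keeps no depth: of 6959 ratios of low values, 20.9% lay within 0.1 of a whole number and 20.0% would by an even spread, so read numbers could not be recovered. No 2 libraries shared equal values in more than 0.684% of tested genes. Separate cultures are not stated, so the p-values reflect only how these libraries vary, possibly for technical reasons.

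Genes reaching 1 FPKM in 3 or more libraries (11411) were fitted as log2(FPKM + 1) with limma 3.58.1 (mean-variance trend) in R 4.3.3, with group as the only term, and Benjamini-Hochberg adjusted over all of them; under 0.05 was called. The fit was tested on simulated data. Gene positions and lengths came from GENCODE release 29 (97.8% of tested genes had a length). The genes and lists were chosen with earlier results of these data known. Named genes were the 10 genes, up to 4 called genes of each list with the largest change, TEAD4, NFE2L2, KEAP1, BACH1, ATF4, DDIT3, TRIB3 and SLC7A11, and the 5 genes nearest to GCLM and to CHAC1. Alternatives were quantile normalization, rescaling to one median, pseudocounts of 5 and 0.1, a filter of 5 FPKM or none, a fit without the mean-variance trend, the replicate number as a block, each library left out in turn, and, chosen after seeing the data, subtraction from each library of a trend in GC content and transcript length (spline, 5 degrees of freedom). Protein sequences were not used here.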

Additional observations from a re-analysis of the deposited data

How the results depend on the processing

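GCLC (log2 fold change 0.96 to 1.36), GCLM (1.32 to 1.51), GSR (0.85 to 0.98) and GGT1 (-1.20 to -0.95) kept their direction and their side of the threshold in all 15 alternatives, while GSS, GPX1 and GPX4 passed in none and changed sign in some. TEAD4 kept its call in all 15 (-0.79 to -0.50; adjusted p from 0.000457 to 0.0275). Leaving out 1 library gave 3415 to 6689 genes called, against 5123 in all, lowest without siTEAD4 1, with 3 to 4 of the 10 genes higher and 1 to 2 lower; the lower count of 1 arose without siTEAD4 1 or siTEAD4 2, where GPX8 missed the threshold. The pathway lists held 29 to 48 called genes in the same settings, against 36. Without 1 library, ATF4 ranged from -0.006 (without Control 1) to 0.16 (without Control 2), so its sign turned (adjusted p = 0.955; over its alternatives from 0.0656 to 0.955). Deviations of same-numbered libraries correlated at -0.163, 0.272 and 0.09, and only siTEAD4 2 correlated best with its own number. With 3 libraries per group, these values cannot decide whether the replicate numbers pair the libraries. With a replicate block 5180 genes were called, again 4 of the genes higher and 2 lower, and 37 list genes. Depth is unknown, so values near 0, such as those of GPX2, have no stated precision. CHAC1 was not tested with a filter of 5 FPKM.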
